A study of Mus musculus with 16 samples.

Results

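Gimap1, Gimap3, Gimap4, Gimap5, Gimap6, Gimap7, Gimap8 and Gimap9 make up a cluster of GTPase genes on mouse chromosome 6, and their expression was followed through 16 MC38 tumors. The 8 genes were found by symbol among the 53465 genes of the bulk RNA-seq table, and all 8 were among the 18251 genes that passed the filter on low counts. They were matched by name, and the family was chosen with earlier results of these data known.

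GIMAP proteins (GTPases of immunity-associated proteins) are small GTP-binding proteins, several of them anchored in intracellular membranes, which are made mainly in lymphocytes and in part in endothelial cells. They are best known for keeping resting T cells and B cells alive: mice and rats without functional Gimap5 lose most of their peripheral T cells. Response to aPD-1 was judged in this study by the T cells in the tumor, and the levels of these lymphocyte genes are given beside that designation.

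MC38 is a mouse colon adenocarcinoma line. MC38 cells were placed under the skin of the flank in female C57BL/6 mice aged 6 to 8 weeks, and mice entered the study when the tumor measured 150 to 250 mm3 on day 16. Mice were randomized to control IgG or to aPD-1, an antibody that blocks the PD-1 receptor of T cells, with 8 mice in each arm. Both antibodies were given as 200 µg on days 16 and 20, and tumors were collected on day 21. The host mice kept their own immune system, and the arms differed in the antibody alone. From immunohistochemistry for CD8 of the same tumors, 2 aPD-1 tumors were designated responders and 6 non-responders. A gene expressed in T cells is therefore not independent of that designation. RNA came from 2 sections of 100 µm of each frozen tumor and was enriched for poly(A) transcripts.

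A tumor had between 26603449 and 39948866 counts in total (median 34105782). Values are given as CPM, the expected count of a gene relative to the TMM-scaled library size. In IgG control replicate 3 the single gene CT010467.1 took 20.4% of the counts, and its TMM factor was 0.784 against 0.981 to 1.07 in the other tumors. Tumors are numbered from 1 to 16 across the groups, so that the IgG controls are replicates 1 to 8, the non-responders 9 to 14 and the responders 15 and 16.

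The cluster spanned chr6:48647234-48770851 in GRCm38. From its first base the protein-coding genes followed in the order Gimap8 (ENSMUSG00000064262, chr6:48647234-48660875), Gimap9 (ENSMUSG00000051124, chr6:48676129-48679114), Gimap4 (ENSMUSG00000054435, chr6:48684549-48692060) and Gimap6 (ENSMUSG00000047867, chr6:48701582-48708225). They were followed by Gimap7 (ENSMUSG00000043931, chr6:48718621-48724636), Gimap1 (ENSMUSG00000090019, chr6:48739054-48743795), Gimap5 (ENSMUSG00000043505, chr6:48746197-48754210) and Gimap3 (ENSMUSG00000039264, chr6:48764464-48770851). Gimap6 and Gimap3 lie on the minus strand and the other 6 on the plus strand. Gimap1os, a transcript on the strand opposite to Gimap1, and Gm28053, a readthrough model from Gimap7 to Gimap5, overlap the members.

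Since the 8 genes moved together in the comparisons described next, the sequence ahead of their starts is shown for 4 of them. Each run holds 250 bases before and 50 bases after the RefSeq start (GRCm38.p6), read 5′ to 3′ on the gene's own strand. Capitals mark the letters CNGGAAG, the core read by ETS family factors, in Gimap9, Gimap5 and Gimap3, and TGTGGT, the core read by RUNX family factors, in Gimap4, each on either strand (the reverse complements are CTTCCNG and ACCACA).

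Gimap9 promoter, chr6:48675885-48676184, plus strand: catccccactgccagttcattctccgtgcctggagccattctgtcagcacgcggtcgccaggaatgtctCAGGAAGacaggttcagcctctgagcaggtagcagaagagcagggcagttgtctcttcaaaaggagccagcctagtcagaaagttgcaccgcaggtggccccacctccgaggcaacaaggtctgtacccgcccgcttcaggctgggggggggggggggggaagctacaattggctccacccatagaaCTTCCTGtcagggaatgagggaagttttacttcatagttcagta
Gimap5 promoter, chr6:48745947-48746246, plus strand: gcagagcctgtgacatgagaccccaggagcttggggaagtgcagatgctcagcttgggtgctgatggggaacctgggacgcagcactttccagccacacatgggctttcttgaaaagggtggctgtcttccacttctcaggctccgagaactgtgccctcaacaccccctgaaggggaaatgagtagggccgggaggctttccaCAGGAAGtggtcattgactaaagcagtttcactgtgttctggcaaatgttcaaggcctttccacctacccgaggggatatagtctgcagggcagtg
Gimap3 promoter, chr6:48770802-48771101, minus strand: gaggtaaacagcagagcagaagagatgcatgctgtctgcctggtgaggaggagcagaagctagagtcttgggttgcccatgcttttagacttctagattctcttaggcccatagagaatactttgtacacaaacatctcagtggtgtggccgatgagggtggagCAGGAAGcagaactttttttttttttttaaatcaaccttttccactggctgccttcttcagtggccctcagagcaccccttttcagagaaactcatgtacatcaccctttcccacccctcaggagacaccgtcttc
Gimap4 promoter, chr6:48684328-48684627, plus strand: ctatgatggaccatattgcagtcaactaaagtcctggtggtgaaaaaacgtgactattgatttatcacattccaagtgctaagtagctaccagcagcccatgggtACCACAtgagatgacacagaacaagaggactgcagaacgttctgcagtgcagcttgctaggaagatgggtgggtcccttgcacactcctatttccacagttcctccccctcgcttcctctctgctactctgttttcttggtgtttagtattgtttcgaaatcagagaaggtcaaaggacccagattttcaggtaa

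The ETS letters stood in the promoters of 3 of the 8 members, Gimap3, Gimap5 and Gimap9, and in 32% of 32544 RefSeq promoters of the same length. They lay at positions -46 to -40 from the start in Gimap5 and -86 to -80 in Gimap3. In Gimap9 they occurred on both strands, at -181 to -175 and at 6 to 12. The RUNX letters stood ahead of Gimap1, Gimap4 and Gimap7, against 16.7% of all promoters. The KLF letters CCACCC were found in 5 members and 31.6% of all promoters, and CTTTGA, read by TCF7 and LEF1, in 2 members and 16% of all promoters. AGATAA, the letters read by GATA factors, was in 0 of the 8 and in 11.2% of all promoters, and TATAAA was in 1 member, Gimap6, and 13.6% of all promoters. No match overlapped another in these promoters. These matches are descriptions of the sequence and no factor's binding was measured.

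All 8 Gimap genes were higher in responders than in non-responders. Their log2 fold changes lay between 3.02 for Gimap4 and 4.11 for Gimap3, with a median of 3.39, while the median of all 18251 tested genes was 0.02. Each passed edgeR's quasi-likelihood test at an adjusted p below 0.05 with a log2 fold change above 1, a call that 12.5% of all tested genes reached in this direction. Both responders lay above all 14 other tumors for each of the 8, which held for 16.7% of all genes. In bulk tissue, more cells that express a gene and more of its RNA per cell cannot be told apart.

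**Figure D1:**
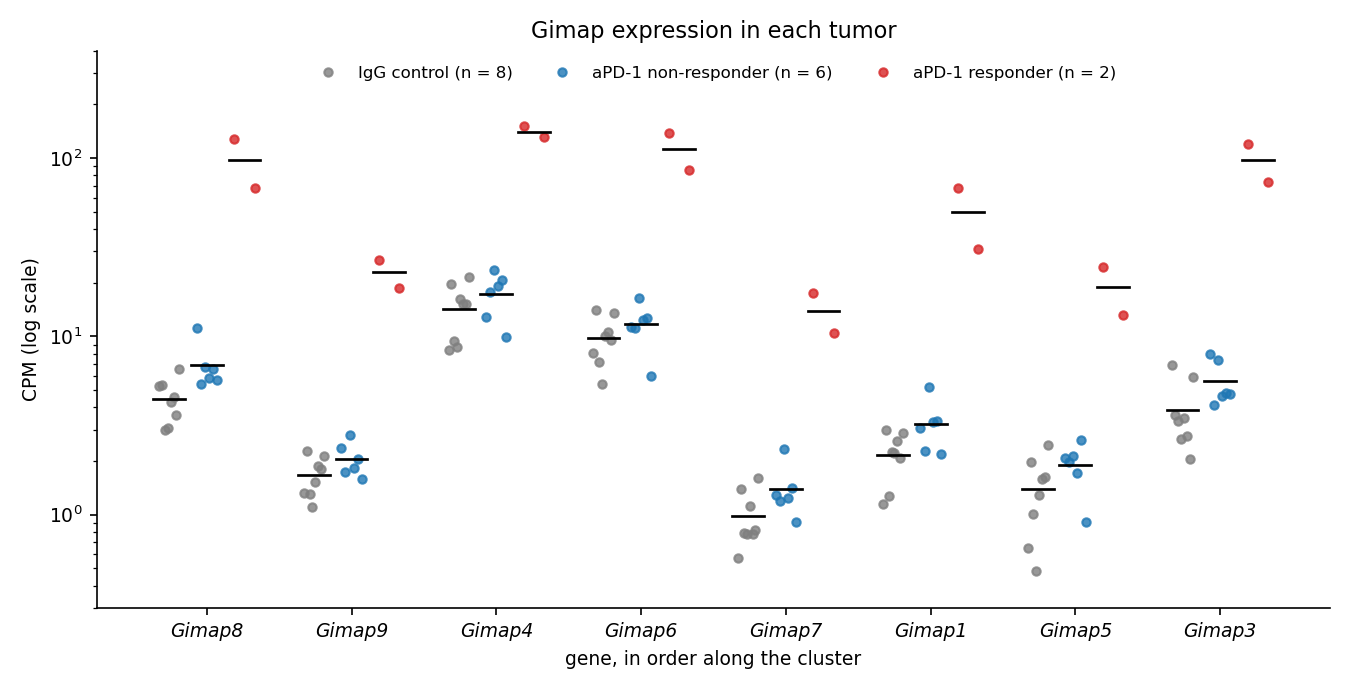
CPM of the 8 Gimap genes in each of the 16 tumors on a log axis, in gene order along the cluster; each point is a tumor and black lines are group means. Both responder tumors lie above all IgG control and non-responder tumors for every gene, and the non-responder and IgG control points overlap.

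Among the members that lymphocytes need for survival, Gimap5, a protein of lysosomal membranes, was at 0.48 to 2.47 CPM in IgG controls (median 1.44) and at 0.915 to 2.62 CPM in non-responders (median 2.02). It was at 24.5 CPM in responder replicate 15 and 13.2 CPM in replicate 16. The lower responder was 5.03 times the highest other tumor, and responders exceeded non-responders by 3.30 on the log2 scale (standard error 0.43, edgeR adjusted p = 3.5e-05). Gimap5 had the largest standard error and the weakest test of the 8.

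Gimap1, which mature T cells and B cells require, ran from 1.14 to 2.98 CPM in IgG controls (median 2.23) and from 2.20 to 5.18 CPM in non-responders (median 3.18). Its responder values were 68.3 and 30.7 CPM. The gap between the responders was the widest of the family, at 2.23-fold, yet the groups stayed apart (log2 fold change 3.93, standard error 0.34, edgeR adjusted p = 4.4e-07). Without replicate 15 the log2 fold change of Gimap1 was 3.17.

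Gimap3 is the close relative of Gimap5 that ends the cluster, and proteins of both have been linked to the Bcl-2 family. It stood at 2.05 to 6.88 CPM in IgG controls (median 3.43), at 4.10 to 7.93 CPM in non-responders (median 4.79), and at 120.7 and 73.8 CPM in the responders. It had the largest rise of the family (log2 fold change 4.11, standard error 0.34, edgeR adjusted p = 3.3e-07), and its lower responder was 9.30 times the highest other tumor, the widest such gap of the 8.

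Gimap6 takes part in autophagy and binds a GABARAP protein. Its values were 5.40 to 13.97 CPM in IgG controls (median 9.80), 5.96 to 16.3 CPM in non-responders (median 11.9), and 138 and 85.3 CPM in responders. No responder came near another group, and the log2 fold change was 3.26 (standard error 0.30, edgeR adjusted p = 9.7e-07).

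Gimap4, a regulator of T cell death, had the smallest rise of the family. IgG controls had 8.36 to 21.5 CPM (median 15.1) and non-responders 9.86 to 23.6 CPM (median 18.4), against 150.5 and 131.0 CPM in responders. Its responders differed by only 1.15-fold, the closest pair of the 8. The log2 fold change was 3.02 (standard error 0.32, edgeR adjusted p = 3.7e-06).

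Gimap8, the largest protein of the family with more than one GTP-binding domain, was at 2.99 to 6.56 CPM in IgG controls (median 4.45), 5.38 to 11.2 CPM in non-responders (median 6.21), and 128 and 67.6 CPM in responders. Of the 8 IgG controls, 7 lay below every non-responder. The log2 fold change from non-responders to responders was 3.82 (standard error 0.29, edgeR adjusted p = 1.2e-07).

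Gimap7, whose protein stimulates GTP hydrolysis by other members, was at 0.570 to 1.61 CPM in IgG controls (median 0.801), 0.915 to 2.33 CPM in non-responders (median 1.26) and 17.5 and 10.4 CPM in responders. It rose by 3.32 on the log2 scale (standard error 0.34, edgeR adjusted p = 3.0e-06), and the lower responder was 4.45 times the highest other tumor, the narrowest such gap of the 8.

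Gimap9 was at 1.11 to 2.27 CPM in IgG controls (median 1.66), 1.59 to 2.79 CPM in non-responders (median 1.94) and 26.9 and 18.7 CPM in responders. Its log2 fold change of 3.47 had the smallest standard error and the smallest p of the 8 (0.25, edgeR adjusted p = 8.5e-08).

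Replicate 15 exceeded replicate 16 for all 8 members, by 1.15-fold to 2.23-fold, whereas 52.5% of all genes were higher in replicate 15. An exact permutation test over tumors, two-sided, gave p = 0.0357 for each member between responders and non-responders, the smallest p that the 28 arrangements of 2 and 6 tumors allow. With replicate 15 left out, the 8 log2 fold changes were 2.72 to 3.64. With replicate 16 left out they were 3.07 to 4.37. A fit with 1 responder takes its spread from the other groups.

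Against IgG controls, which share the responder tumors with the first comparison, all 8 members were also called higher in responders, where 14.3% of all tested genes were. The log2 fold changes ran from 3.30 for Gimap4 to 4.66 for Gimap3 (median 3.79, all genes -0.02), with edgeR adjusted p from 5.1e-09 for Gimap8 to 2.4e-06 for Gimap5. Both responders lay above all IgG controls for each of the 8, as they did for 19.3% of all genes. The exact permutation p, two-sided, was 0.0222 for each, the smallest that 2 and 8 tumors allow. Mean levels in responders were between 9.88 times the IgG mean for Gimap4 and 25.3 times for Gimap3.

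Between non-responders and IgG controls the family did not pass the test. edgeR's quasi-likelihood test called 0 of the 8 and 0 of all genes in either direction, although 694 genes had an unadjusted p below 0.05, and DESeq2 called 0 of the 8 and 4 of all genes. The log2 fold changes of all 8 were above 0, from 0.25 for Gimap6 to 0.63 for Gimap8 (median 0.48, all genes -0.01), and 8890 of the 18251 tested genes were above 0. At an unadjusted p below 0.05 stood 3 members, Gimap8, Gimap1 and Gimap3, while 2.56% of all genes were higher at that level. For 0 of the 8 did all 6 non-responders lie above all 8 IgG controls, which held for 0.0164% of all genes.

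Gimap8 had the clearest separation of these groups, at 0.63 on the log2 scale (95% interval 0.21 to 1.04, edgeR adjusted p = 0.987) and an exact permutation p of 0.00966, two-sided. For Gimap1 the difference was 0.57 (95% interval 0.07 to 1.06) with an exact permutation p of 0.0463. Gimap3 gave 0.55 (95% interval 0.05 to 1.05) with an exact permutation p of 0.0529, and the other 5 members gave exact permutation p-values of 0.0679 to 0.33. These exact p-values are not adjusted over the 8 members, and that of Gimap8 is the smallest of them. Non-responder replicate 9 had the highest Gimap8 of its group, 11.2 CPM, with the next at 6.77 CPM. Without 1 tumor at a time, 0 members were called in any of the 14 fits. Gimap8 stayed below an unadjusted edgeR p of 0.05 in all 14, and 1 to 4 members did so in total. Without IgG control replicate 1, 3219 of all 18104 genes were below that level and 2 were called higher. The members below it in that fit were Gimap3 and Gimap8, and the smallest member adjusted p was 0.198. In the other fits the all-gene number ran from 522 of 18204 (without IgG control replicate 6) to 789 of 18232 (without non-responder replicate 10).

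The comparison that randomization made, 8 aPD-1 against 8 IgG tumors, joins responders and non-responders. The 8 members had log2 fold changes from 1.76 for Gimap4 to 2.89 for Gimap3, with a median of 2.17 and standard errors of 0.56 to 0.77. edgeR called 0 of them and 0% of all genes, with member adjusted p from 0.152 to 0.183. All 8 were at an unadjusted edgeR p below 0.05, as were 11.3% of all genes in this direction. For 0 of the 8 did all 8 aPD-1 tumors lie above all 8 IgG tumors (0.0164% of all genes did). DESeq2 called 90 genes higher and 1 lower, none of them a member. For 7 members, all but Gimap4, DESeq2 replaced the count of responder replicate 15 as an outlying value, and the 8 log2 fold changes were then 1.08 to 1.85.

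**Figure D2:**
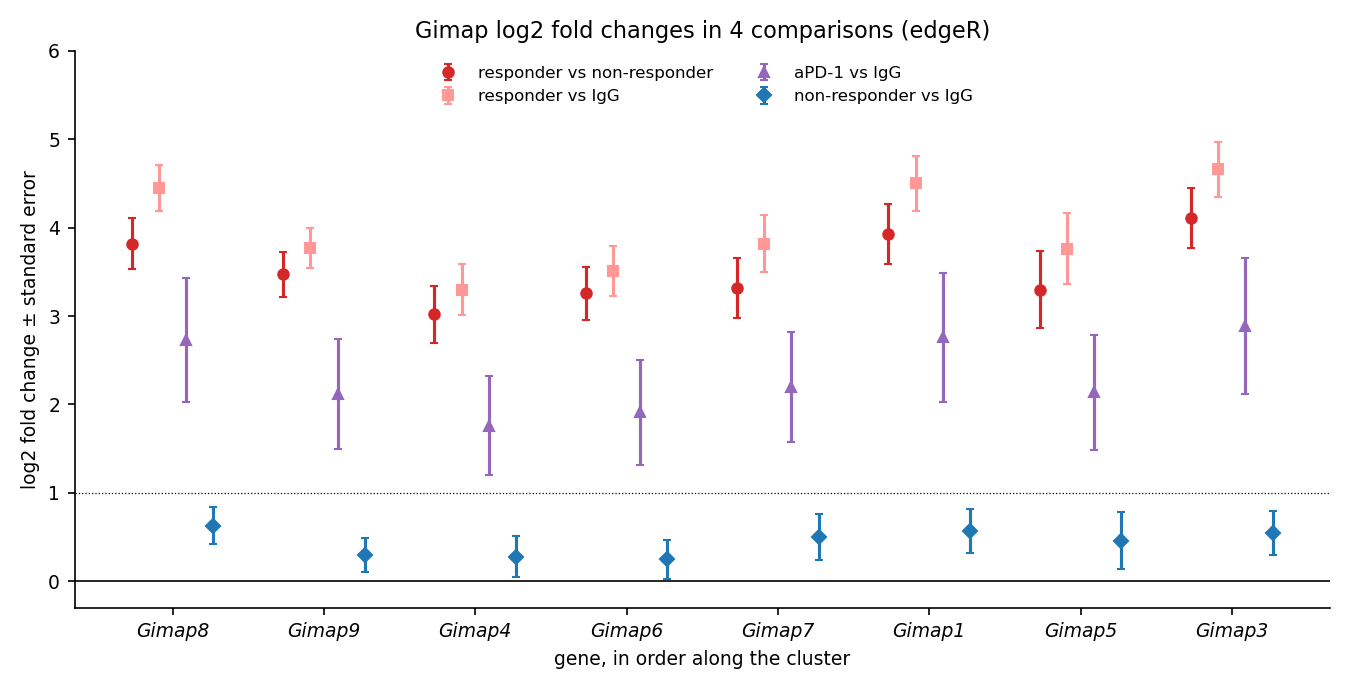
log2 fold change with standard error (edgeR) of each Gimap gene in 4 comparisons: responder against non-responder, responder against IgG control, all aPD-1 against IgG control, and non-responder against IgG control. The comparisons share tumors; the dotted line marks the threshold of 1, and the non-responder points lie between 0.25 and 0.63.

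Levels of different members were compared per kilobase of exon. Gimap4 was the highest of the family in all 16 tumors, at 7.75 ± 2.73 CPM per kilobase in IgG controls (SD, n = 8), 9.44 ± 2.79 in non-responders (SD, n = 6) and 76.6 ± 7.52 in responders (SD, n = 2). Its lowest value lay above the highest value of the next member in each of the 3 groups. Gimap6 came next in IgG controls and non-responders, at 2.79 ± 0.844 (SD, n = 8) and 3.34 ± 0.961 (SD, n = 6) CPM per kilobase, with 31.97 ± 10.7 in responders (SD, n = 2).

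Gimap3 was at 1.49 ± 0.649 (SD, n = 8), 2.18 ± 0.629 (SD, n = 6) and 37.7 ± 12.9 (SD, n = 2) CPM per kilobase in the same order of groups. In both responders Gimap3 stood above Gimap6, and in the other groups Gimap6 was above Gimap3 in 7 of 8 and 5 of 6 tumors. Gimap8, Gimap9 and Gimap1 followed with overlapping ranges, and Gimap7 and Gimap5 were last, at 0.422 and 0.334 CPM per kilobase in IgG controls. Taking means over all tumors, Gimap4 was 18.7 times Gimap5 per kilobase of exon and 10.7 times when the longest transcript gave the length.

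The make-up of the family differed between tumors. Gimap4 made up 48.6% ± 5.61 of the summed per-kilobase level in IgG controls (SD, n = 8), 46.4% ± 6.53 in non-responders (SD, n = 6) and 32.1% and 41.5% in responders 15 and 16. The responder shares lay within the range of the other tumors, 35.3% to 54.0%, for replicate 16 and below it for replicate 15. Gimap3 took 10.02% ± 5.07, 11.1% ± 3.20 and 17.5% ± 1.19 in the same order, with 1 IgG control reaching 21.3%.

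**Figure D3:**
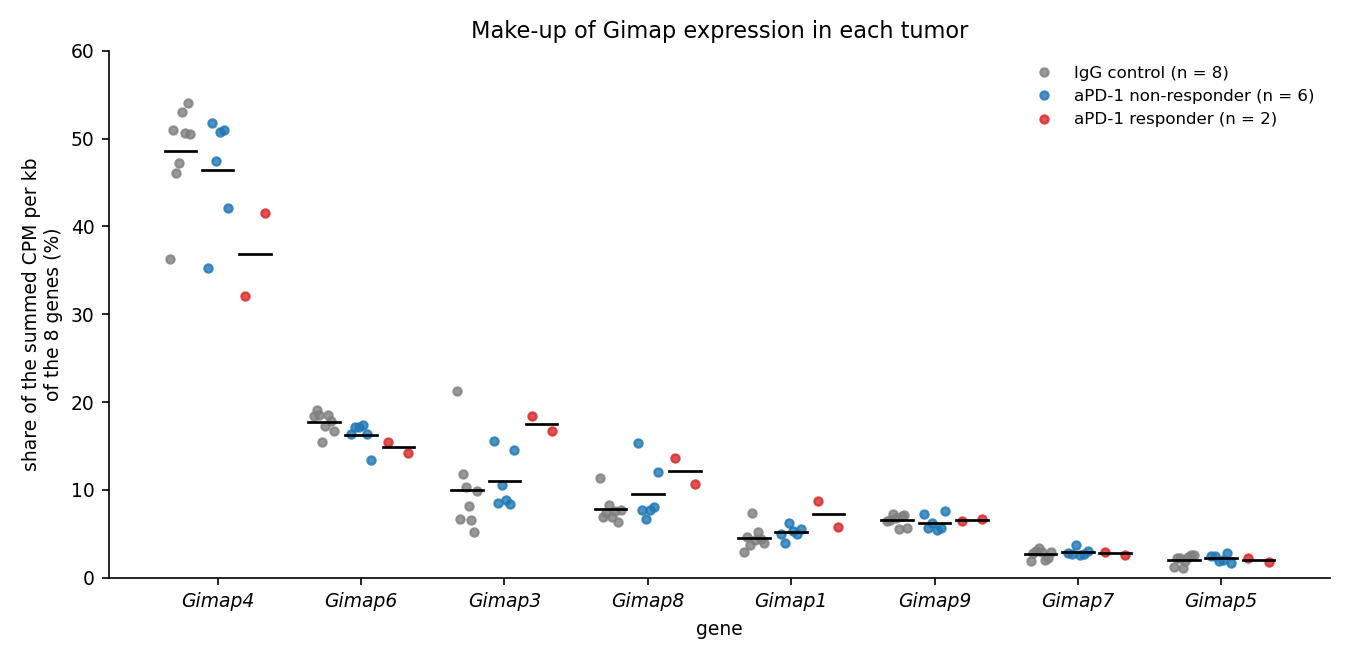
Share of each Gimap gene in the summed CPM per kilobase of the 8 genes, in percent, for each tumor; black lines are group means. Gimap4 takes the largest share in all 16 tumors, with group means of 48.6%, 46.4% and 36.8%, and IgG control replicate 1 lies apart at the highest Gimap3 share.

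Ratios between members were taken as differences of log2 CPM within a tumor. The mean of Gimap3 over Gimap4 was -1.60 in non-responders and -0.57 in responders, with overlapping ranges, and that of Gimap3 over Gimap5 was 1.55 and 2.39, with ranges that barely overlapped. Gimap3 over Gimap6 lay apart from both other groups, at -0.20 and -0.21 in responders against -2.18 to -0.23 in the other 14 tumors. That pair was singled out of 28 after the values were seen, and no test is given.

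Parts of the cluster share sequence, which bears on how reads were divided. Of the 50-base windows of Gimap3 transcripts, 7.52% also occurred in Gimap5 and 4.53% of those of Gimap5 in Gimap3, while Gimap4, Gimap8 and Gimap9 shared 0%. Gimap1 shared 4.78% with Gm28053 on its strand and 32.4% with Gimap1os on the opposite strand. Its deposited count was not a whole number in 12 of 16 tumors, and those of the other 7 members were whole in all 16. The libraries kept strand, but whether the counting used it is not given in the sources used here, so that reads of Gimap1 and Gimap1os may not be fully separated.

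Gimap1os was at 0.233 to 0.574 CPM in IgG controls (median 0.416), 0.365 to 1.46 CPM in non-responders (median 0.656), and 10.1 and 6.22 CPM in responders (log2 fold change over non-responders 3.48, standard error 0.39, edgeR adjusted p = 6.0e-06). Gm28053, named here after its values were seen, had at most 21 counts in a tumor and a log2 fold change of 3.84 (standard error 0.78, edgeR adjusted p = 0.00193). Inside the cluster lie also the long non-coding transcripts Gm44226 and 4833403J16Rik, likewise named after their values were seen. Gm44226 had 5.50 and 2.31 CPM in responders and at most 0.694 CPM elsewhere, and 4833403J16Rik had 4.05 and 1.38 CPM against at most 0.519. Both were called higher, with log2 fold changes of 3.35 and 2.97.

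Around the cluster the pattern was mixed. Of the 5 nearest protein-coding genes on each side, 5 were tested. AI854703, 13.5 kb before the cluster, rose by 2.79 on the log2 scale (standard error 0.64, edgeR adjusted p = 0.00502) at no more than 0.976 CPM in any tumor. Zfp775 and Repin1, 24.0 and 48.2 kb before it, were not called, at -0.39 and -0.20. Tmem176b and Tmem176a, 63.0 and 70.1 kb after it and known from antigen-presenting cells, rose by 2.05 and 2.22 on the log2 scale (edgeR adjusted p = 2.5e-04 and 1.2e-05). Within 300 kb on either side, 9 of 14 tested genes outside the cluster were called higher and 0 lower, beside 12.5% and 0.663% of all genes.

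**Figure D4:**
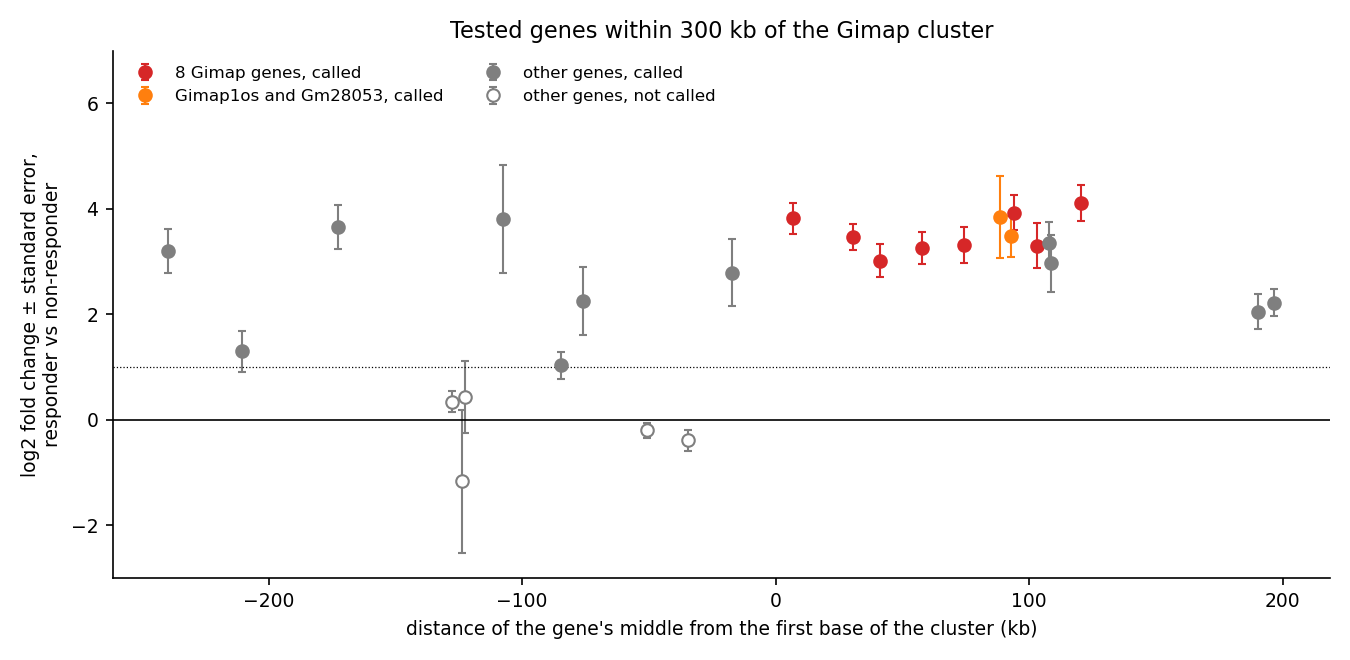
Responder minus non-responder log2 fold change (edgeR, with standard error) for every tested gene within 300 kb of the Gimap cluster, by the distance of the gene's middle from the cluster's first base in kilobases. The 8 Gimap genes (red) lie between 3.02 and 4.11; filled points are called and open points, among them Zfp775 and Repin1, are not.

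The members were then set beside marker genes of the cell types that could carry them. All 12 T cell markers were called higher in responders than non-responders, with log2 fold changes of 2.79 to 4.18 and a median of 3.57, close to the 3.39 of the Gimap genes. Lck, the kinase of T cell receptor signalling, was at 57.2 and 49.2 CPM in responders and at most 6.25 CPM elsewhere (log2 fold change 3.72, standard error 0.28, edgeR adjusted p = 1.1e-07). Cd2, an adhesion molecule of T cells, was at 41.7 and 29.5 CPM against at most 4.72 (log2 fold change 3.77).

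Within a tumor, each member's log2 CPM was compared with the mean log2 CPM of the T cell list. The responder values overlapped those of non-responders for 7 of the 8 members, whereas 91.8% of all genes lay below, and 0.849% above, the non-responder range in both responders on this scale. The exception was Gimap4, at 2.73 and 2.62 in responders and 2.93 to 3.63 in non-responders. The change of the ratio from non-responders to responders ran from -0.50 for Gimap4 to 0.53 for Gimap3, with a median of -0.21 over the members.

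Of 7 genes of naive and recirculating lymphocytes, 6 were called higher, with a median of 1.81. Il7r, the receptor of the survival cytokine IL-7, rose by 1.75 on the log2 scale (edgeR adjusted p = 6.6e-04). Lef1, a factor of naive T cells, was not called (edgeR adjusted p = 0.118). Relative to the mean of this list, all 8 Gimap genes in both responders exceeded the other 14 tumors, by 0.64 to 1.67 over the non-responder mean. On this scale 2.68% of all genes lay above the non-responder range in both responders and 85.4% below it.

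Cytotoxic effector genes were called for 5 of 10 (median 1.35), namely Gzma, Gzmk, Nkg7, Ccl5 and Cst7, and NK cell genes for 5 of 8 (median 1.36), namely Ncr1, Klrb1c, Eomes, Klrd1 and Il2rb. The chemokine Ccl5 had a log2 fold change of 1.47 (edgeR adjusted p = 0.0219) and granzyme B (Gzmb) one of 0.89 (edgeR adjusted p = 0.312). Il2rb, a subunit of the IL-2 receptor, rose by 1.85 and the activating receptor gene Klrk1 had 0.95 (edgeR adjusted p = 0.0578). The summed level of both lists was higher in replicate 16 than in replicate 15. Without replicate 16 the effector median was 0.25 and the NK median 0.86. Without replicate 15 the medians were 1.78 and 1.69, likewise in a fit with 1 responder.

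Other cell types moved with the responders. All 10 B cell genes were called higher, with a median of 7.56. Their summed level was 1484 CPM in replicate 15 and 386 CPM in replicate 16 against 2.14 to 9.50 CPM elsewhere. Cd22 rose by 6.45 on the log2 scale, from at most 2.28 CPM in the other tumors. Relative to the B cell list all 8 Gimap genes lay below the non-responder range in both responders, as did 99.1% of all genes, while 0.0219% lay above it.

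All 6 genes that mark lymph node stroma or high endothelial venules were called (median 6.96), among them the chemokine Ccl21a at 6.70 and the mucin-like Glycam1 at 8.32. Glycam1 had a median of 0 CPM in IgG controls and 183.7 and 30.6 CPM in responders. Their summed level was 423 and 130.5 CPM in responders and 0.190 to 4.58 CPM elsewhere. All 6 fat cell genes were called as well (median 5.48), with sums of 2287 and 404 CPM against 16.8 to 144 CPM, including the fatty acid carrier Fabp4 (edgeR adjusted p = 1.7e-05) and Cfd, at 5.41 (edgeR adjusted p = 0.00551). Without replicate 15 the fat cell median was 3.68, in a fit with 1 responder.

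Replicate 15 was thus the higher responder for the Gimap genes, the B cell genes, the lymph node genes and the fat cell genes, while its T cell sum of 304 CPM stood beside 277 CPM in replicate 16. The blood endothelial sum had the same order (453 against 242 CPM), as did the naive lymphocyte sum (488 against 396 CPM). The cytotoxic effector sum had the other order, 104 CPM in replicate 15 against 242 CPM in the second responder. So did the NK cell sum (60.3 against 99.0 CPM) and the skeletal muscle sum (4.70 against 11.8 CPM). The part of lymph node, fat or blood vessel tissue in the Gimap levels was not tested.

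Of 10 blood endothelial genes, 3 were called higher, Pecam1, Kdr and Tek, and the median was 0.96. Their sum was 453 and 242 CPM in responders and 63.2 to 238 CPM elsewhere. Pecam1, an adhesion molecule of endothelium that leukocytes also carry, rose by 1.62 (edgeR adjusted p = 0.0114), and Cdh5, the cadherin of endothelial junctions, one of 0.88 (edgeR adjusted p = 0.201). Without replicate 15 the median of the endothelial list was 0.31, and the Gimap log2 fold changes were 2.72 to 3.64. Relative to this list each Gimap gene lay above all other tumors in both responders, by 1.87 to 2.90 over the non-responder mean. On this scale 6.42% of all genes lay above the non-responder range and 33.8% below it.

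Macrophage genes were called for 1 of 8 (Mrc1, median 0.41), fibroblast genes for 1 of 6 (Lum, median 0.73), and skeletal muscle and keratinocyte genes for 0 of 6 each. C1qa and Csf1r of macrophages were at -0.02 and 0.40, and Col3a1 and Dcn of fibroblasts at 0.03 and -0.26. The muscle genes Myh4 and Acta1 were at -1.17 and -2.61 with standard errors of 2.65 and 2.70, and the keratin genes Krt14 and Krt10 at -1.06 and -0.88. At an unadjusted edgeR p below 0.05 stood 0 muscle genes and 1 keratinocyte gene.

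A further list held 13 genes that have been linked to GIMAP proteins, namely Bcl-2 family members, GABARAP family members of autophagy and lymphoid transcription factors. Here 3 were called higher, Bcl2 (log2 fold change 1.47, standard error 0.24, edgeR adjusted p = 2.6e-04), Foxo1 (1.84, edgeR adjusted p = 1.0e-04) and Ikzf1 (2.69, edgeR adjusted p = 1.1e-07), and the median was 0.12. Bcl2 encodes a protein that restrains cell death, Foxo1 a factor of naive T cells and Ikzf1 the lymphoid factor Ikaros. Genes of the autophagy machinery were not called. Gabarap had 0.06 (edgeR adjusted p = 0.874) and Gabarapl2, singled out after its value was seen, 0.12 (edgeR adjusted p = 0.753), and Mcl1, which also restrains cell death, had 0.26 (edgeR adjusted p = 0.0964). Without replicate 15 the median of the 13 was 0.04, in a fit with 1 responder.

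All 10 genes of other lymphocyte GTPases and their regulators were called higher, with a median of 1.85 and a range of 1.17 to 2.76. Coro1a, an actin regulator needed for T cell survival, rose by 1.57 (standard error 0.17, edgeR adjusted p = 4.9e-06), and Arhgef1, a guanine nucleotide exchange factor, by 1.49 (standard error 0.23, edgeR adjusted p = 1.7e-04). Their largest log2 fold change was below the smallest of the Gimap genes, 3.02. The summed level of the 10 was already 286 to 354 CPM in IgG controls, against 24.4 to 56.5 CPM for the Gimap genes. The difference between these lists was not tested, and neither was the part of cells other than lymphocytes in it.

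With the responders left out as a separate cluster, 14 tumors remained for asking which cell type the members vary with. Each member's log2 CPM was correlated with the mean log2 CPM of 4 marker lists, 32 relations in all, with permutation tests of 100000 resamples and Benjamini-Hochberg adjustment over the 32. All 8 members passed with the T cell list (Pearson r 0.65 to 0.80, Spearman rho 0.62 to 0.81, permutation adjusted p 0.0064 to 0.0288 for r and 0.0068 to 0.0472 for rho). Tumors were shuffled across both groups, so a difference between the groups enters these values. The median T cell score was 0.31 in IgG controls and 0.89 in non-responders, and all 8 members were also higher in non-responders. An r above 0.6, a level that separates the members that passed from the others and was set after their values were seen, was reached by 8 of 8 members and 3.56% of all tested genes. The strongest was Gimap7, at r = 0.80 and rho = 0.81 (permutation p = 6.0e-04 and 8.6e-04).

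Leaving out the 2 tumors farthest from the median T cell score, IgG control replicate 8 and non-responder replicate 11, lowered the 8 r values to 0.45 to 0.66. Within the 8 IgG controls r ran from 0.15 for Gimap1 to 0.78 for Gimap8 (median 0.59), and within the 6 non-responders from 0.08 for Gimap8 to 0.97 for Gimap1 (median 0.82). An unadjusted exact permutation p below 0.05 was reached within IgG controls by Gimap3 and Gimap8 only. Within non-responders it was reached by Gimap1, Gimap4, Gimap6 and Gimap7. Non-responder replicate 11 had the highest T cell score of the 14, 1.64, and the highest Gimap1, Gimap4, Gimap6, Gimap7 and Gimap9 of its group. IgG control replicate 8 had the highest T cell score of the controls, 1.14, and their highest Gimap4, Gimap5, Gimap7 and Gimap8.

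With the blood endothelial list 6 members passed, and 6.75% of all tested genes had an r above 0.6. Gimap6 had r = 0.89 and rho = 0.87 (permutation p = 3.0e-05 and 1.6e-04, adjusted p = 9.6e-04 and 0.00272), and kept 0.87 without the 2 farthest tumors, 0.93 within IgG controls and 0.93 within non-responders. Gimap4 followed at r = 0.86 and rho = 0.87 (permutation p = 1.6e-04 and 1.7e-04), Gimap5 at 0.78, Gimap9 at 0.76, Gimap7 at 0.70 and Gimap1 at 0.63. Gimap8 and Gimap3 did not pass, at r = 0.33 and 0.13 (permutation p = 0.258 and 0.662). Over the 8 members the median r was 0.80 without the 2 farthest tumors, 0.83 within IgG controls and 0.81 within non-responders. With the T cell list these medians were 0.62, 0.59 and 0.82. The T cell and endothelial scores were themselves related over these 14 tumors, at r = 0.55, so that the 2 lists are not separate axes.

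With the B cell list 0 members passed, at r from -0.19 to 0.36, and 0.833% of all tested genes had an r above 0.6. With the macrophage list that share was 25.1%, and 1 member passed, Gimap4, at r = 0.63 and rho = 0.57 (permutation p = 0.0134 and 0.0347, adjusted p = 0.0306 for r and 0.074 for rho). Gimap3 and Gimap8 had negative r with macrophage genes, at -0.50 and -0.31 (permutation p = 0.0718 and 0.284). Those values were -0.07 and 0.05 without IgG control replicate 1 and non-responder replicate 9, the tumors with the lowest macrophage scores of their groups.

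**Figure D5:**
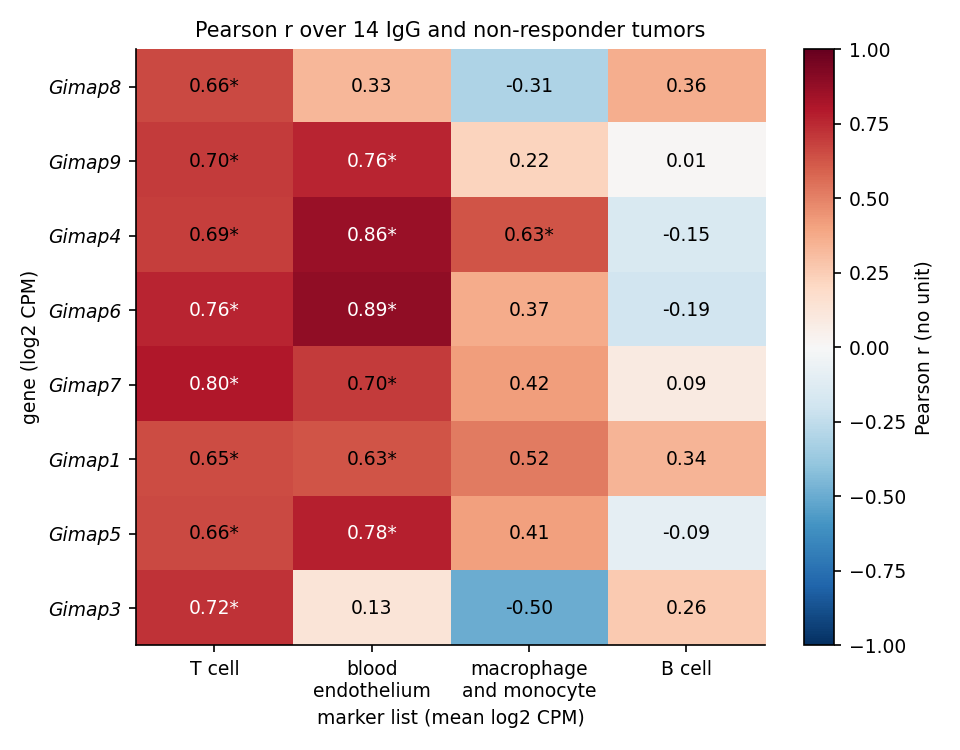
Pearson r between log2 CPM of each Gimap gene and the mean log2 CPM of 4 marker lists over 14 tumors (8 IgG control, 6 non-responder); the colour gives r and an asterisk marks a permutation p below 0.05 after adjustment over 32 relations. The T cell column holds r of 0.65 to 0.80 for all 8 genes, and in the blood endothelium column Gimap3 and Gimap8 stay at 0.13 and 0.33.

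Among themselves the members had Pearson r of 0.16 to 0.92 over the same 14 tumors, with a median of 0.75 over 28 pairs. The closest pair was Gimap4 with Gimap6, at 0.92. Gimap3 stood with Gimap8, at 0.81, and had 0.16 with Gimap4 and 0.26 with its relative Gimap5. The points share library depth and tissue make-up, and no test is given.

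Over all tested genes, with each group's mean removed, the 5 most like the mean of the members in these 14 tumors were Fli1 (r = 0.95), Syt15 (0.94), Sema3g (0.93), Tie1 (0.93) and Agtr1a (0.93). They were picked as the highest r of all tested genes, and no test is given. Syt15, Sema3g and Agtr1a were low in these tumors, at means of 0.537, 1.5 and 0.459 CPM. Fli1 and Tie1 had means of 9.26 and 8.25 CPM. Fli1 is an ETS family factor of blood and endothelial cells, Tie1 a receptor of endothelial cells, Sema3g a semaphorin and Agtr1a a receptor of angiotensin II. Between responders and non-responders Fli1 had a log2 fold change of 1.73 (edgeR adjusted p = 8.2e-06), Sema3g 2.62 (edgeR adjusted p = 9.7e-04), Agtr1a 3.14 (edgeR adjusted p = 0.00846) and Syt15 2.53 (edgeR adjusted p = 0.0178). Tie1 was not called, at 1.04 (edgeR adjusted p = 0.147).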

How the data were processed

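Poly(A)-enriched, strand-specific RNA libraries of 16 tumors gave paired 150-base reads. The authors aligned these to GRCm38 with STAR 2.6 and estimated counts per Ensembl 91 gene with RSEM 1.3.0, and they deposited expected counts, not normalized, in 1 table. Such counts divide reads that fit several genes, and 7.83% of values were not whole. They were rounded here. The 92 spike-in entries, at most 185 counts in a tumor, were left out. Symbols came from GENCODE M21 and matched 53274 of 53465 genes. All 120 pairs of tumors differed by more than sampling noise (chi-square over degrees of freedom at least 16.5).

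Differential expression was fitted in edgeR 4.0.16 under R 4.3.3, scaled by TMM, filtered with filterByExpr on the 3 groups and tested by robust quasi-likelihood, 1 model holding all 16 tumors. aPD-1 against IgG was fitted as 2 groups of the same genes. Benjamini-Hochberg adjustment covered the 18251 genes tested, and a gene was called past both an absolute log2 fold change of 1 and an adjusted p of 0.05. Standard errors were derived from the F statistic. log2 CPM used a prior count of 2. Of these steps only the edgeR fit was tested on simulated counts, with 200 changed genes judged by adjusted p. Single members were also compared by exact permutation tests of log2 CPM, two-sided. Permutations ran in Python 3.11.15 with numpy 2.4.6, and scipy 1.17.1 gave the ranks. The alternatives were DESeq2 1.42.0, median-of-ratios size factors, other filters, pairwise fits of 2 groups, and omission of each tumor in turn. Promoter and transcript sequences came from RefSeq (GRCm38.p6) and GENCODE M21. All 8 members had a promoter there, Gimap8 with 2 entries.

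Genes named in the text are the 8 members, the other gene whose symbol begins with Gimap, the 5 nearest protein-coding genes on each side, the 2 tested genes of highest mean CPM of each list, lists of 5 or fewer called genes, and the 5 genes most like the members. Some genes that this rule names are not reported here. The members and lists were chosen with earlier results of these data known. Each tumor came from another mouse.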

Additional observations from a re-analysis of the deposited data

Results flagged for a closer look

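For each of the 8 members, Gimap1os and Gm28053, the IgG control and the non-responder values were searched for a highest or lowest tumor that lies far from its group, by Dixon's criterion at 95%. Of 20 groups searched, 3 held such a tumor, and chance gives about 1 in 20 groups. Gimap8 in non-responder replicate 9 was at 11.2 CPM, with the next non-responder at 6.77 CPM and the lowest at 5.38 CPM. Gimap1os in the same tumor was at 1.46 CPM, with the next at 0.684 CPM. Gimap7 in non-responder replicate 11 was at 2.33 CPM, with the next at 1.41 CPM, and this tumor also had the highest T cell score of the non-responders. The part of T cell content in these values was not tested.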

How the results depend on the processing

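All 8 members stayed called between responders and non-responders, and between responders and IgG controls, with DESeq2, median-of-ratios size factors, no filter on low counts, a filter of at least 10 counts in at least 8 tumors, fits of only the 2 groups, and each IgG control or non-responder left out in turn. Of all genes, DESeq2 called 2248 of 18251 higher in responders than non-responders. The count was 2429 of 30852 with no filter and 1515 of 15901 with the filter of 10 counts. Without 1 non-responder it ran from 1973 of 18232 (replicate 10) to 2288 of 18229 (replicate 11). Their log2 fold changes between responders and non-responders lay between 2.94 and 4.13 under the settings that keep all tumors, and between 2.72 and 4.37 over the fits without 1 tumor. In the other 2 comparisons 0 members were called under every alternative. For aPD-1 against IgG the member log2 fold changes fell to 1.14 to 1.95 without responder replicate 15 and to 1.32 to 2.48 without replicate 16. The count of called genes over all marker and partner lists was 68. Where 1 responder was left out, lists are described by their medians alone, because such a fit takes its spread from the other groups. Per length, Gimap4 over Gimap5 was 10.7 in place of 18.7 with the longest transcript as length, since Gimap5 then loses more length than Gimap4. With group means subtracted, the median r with the T cell list was 0.60 in place of 0.70. No paired analysis was possible because each tumor has a number of its own that no other group shares. With 2 responders, selected by CD8 staining, differences between them have no estimate of their own, members under about 100 counts in most tumors (Gimap5, Gimap7, Gimap9) carry more counting error, and reads of Gimap1 and Gimap1os may mix.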
